A study of Mus musculus with 12 samples.

Results

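EO771-tdT-LM2 breast cancer cells were compared after culture with an antibody against NCAM1 or with control IgG, in the absence of added GDNF. EO771 is a mouse mammary tumour line, and the tdT-LM2 derivative is labelled wild type. The comparison used 6 of the 12 RNA-seq libraries of the study, chosen by their labels: 3 cultures with 2.5 µg/mL anti-NCAM1 and 0.1% BSA, and 3 control cultures with 2.5 µg/mL IgG and 0.1% BSA. All 6 were grown in medium with 10 mg/dl glucose and 1% FBS, before seeding for 30 minutes and then during the 24 hours of treatment, so that low glucose was shared by the controls. The other libraries, 3 with 0.2 µg/mL GDNF and 3 with GDNF and the antibody together, entered the shared estimate of the spread and are described only where the antibody was compared with and without GDNF. The labels call the cultures of a condition triplicates without saying that they were separate experiments, so the p-values measure the spread between these cultures. The isotype and the clone of the antibody are not given in the sources used here, nor is whether it blocks or clusters its target.

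NCAM1 is a cell adhesion molecule of the immunoglobulin superfamily. It binds NCAM1 on neighbouring cells, and it signals through the FGF receptor FGFR1 and through the kinases FYN and FAK towards Ras and ERK. In neurons it can also act as a receptor for GDNF together with the co-receptor GFRα1, in cells that lack the receptor tyrosine kinase RET. An antibody to NCAM1 acts on the protein at the cell surface, so the abundance of the Ncam1 transcript does not check the treatment.

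The 6 libraries held 6229996 to 8093754 counts, and 3 counts corresponded to 0.371 to 0.482 CPM, the usual depth-scaled count. CPM are given after TMM normalisation. The standard errors of log2 fold changes come from the fitted model and include the spread between cultures, for low counts as well. Ranks of genes correlated at 0.992 to 0.996 (Spearman, across genes, which are not independent replicates) between libraries of different groups and at 0.993 to 0.996 between libraries of the same group. Transcripts of the mitochondrial genome held 4.11 to 4.38% of the counts in the controls and 4.26 to 4.79% with the antibody. Of 14 markers of mouse mammary luminal epithelium, 12 averaged under 3 counts per library and 7, among them Krt19, Gata3, Elf5 and Prlr, had no counts, while Krt8 and Epcam were detected. Markers of leukocytes summed to 7.44 to 10.3 CPM in the controls and 8.36 to 10.4 CPM with the antibody, with Itgam, Adgre1 and Tyrobp at 0. Markers of fibroblasts summed to 826 to 876 CPM and 764 to 821 CPM, from Col1a1, Col3a1 and Pdgfra above all, with Dcn, Lum, Fap and Thy1 at 0. The part of those differences in the results below was not tested. In a bulk culture, fewer cells of a type and less RNA per cell cannot be told apart.

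Antibody replicates 1 and 3 stood apart from the other 4 libraries on 1 axis before any gene was tested. On the first principal component of the 6 libraries, which held 28.5% of the variance, they lay at 13.2 and 17.8, whereas antibody replicate 2 lay at -6.23 beside the controls, at -8.89 to -7.48. On the second component, with 20.7% of the variance, antibody replicate 2 lay lowest, at -13.2. Antibody replicates 1 and 3 lay there at 12.3 and -8.79, and the controls at -4.65 to 8.41. Antibody replicates 1 and 3 also differed from the others in how gene level followed GC content. Over the 2829 tested genes in the lowest quartile of transcript GC content, the mean level above the control mean, on the scale of log2(CPM + 2), was 0.12 in antibody replicate 1, 0.02 in replicate 2 and 0.12 in replicate 3. Over the 2828 genes in the highest quartile it was -0.16, 0.00 and -0.14. Each control library lay within 0.02 of the control mean in both quartiles. The median log2 fold change of antibody over control accordingly ran from 0.10 in the lowest quartile of GC content through 0.03 and -0.03 to -0.11 in the highest. On transcript length, all 3 antibody libraries differed from the controls. The slope of level per 10-fold of length, relative to the mean of the 6 libraries, was 0.08, 0.06 and 0.03 in the controls. It was 0.00, -0.05 and -0.12 in antibody replicates 1 to 3. Where a log2 fold change is followed by its value with the trend removed, each library's trend on GC content and transcript length was taken out in the 6 compared libraries. What produced the trend was not tested.

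**Figure D1:**
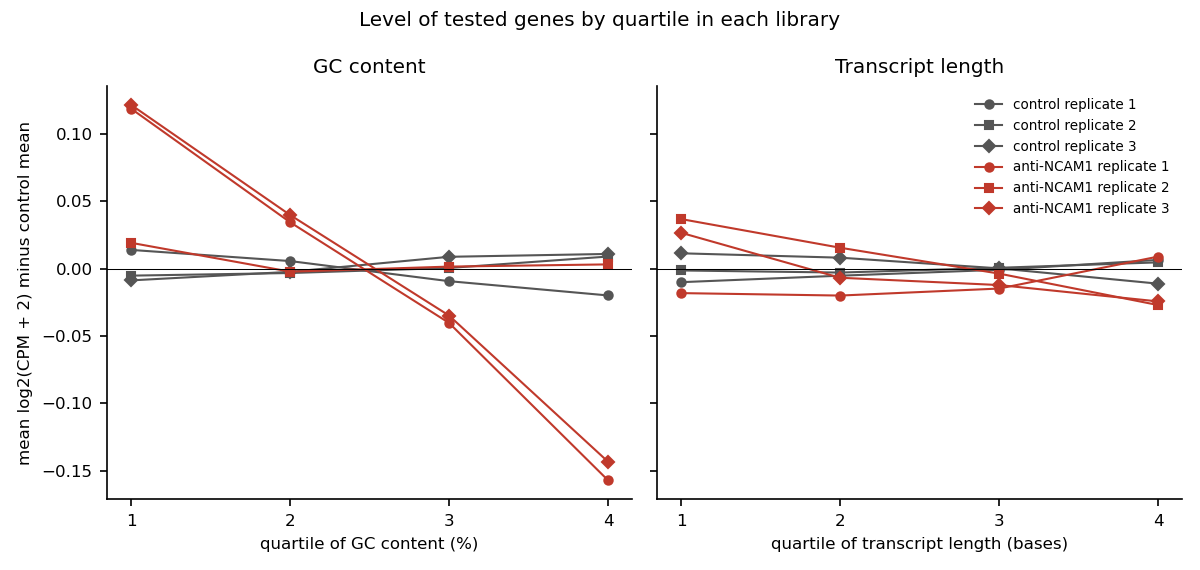
Mean level of tested genes, as log2(CPM + 2) minus the control mean (vertical axis), in each quartile of GC content (left) and transcript length (right), with 1 line per library. Antibody replicates 1 and 3 fall from 0.12 in the first GC quartile to -0.16 and -0.14 in the fourth, while antibody replicate 2 and the 3 controls stay within 0.02 of zero.

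The target and its partners were measured first. Ncam1 lies on chromosome 9 and was expressed at a low level, with 7.68, 11.9 and 7.91 CPM in control replicates 1 to 3 and 7.74, 9.31 and 9.56 CPM with the antibody. The groups overlapped, and the log2 fold change was -0.05 ± 0.21 (SE, n = 3 against 3; edgeR adjusted p = 0.970), an interval that holds changes of Ncam1 in either direction. The transcripts of GFRα1 and RET were at the detection limit: Gfra1 reached 0.324 CPM and Ret 0.282 CPM at most, below the 3 counts per library taken as the floor. Fyn, the Src-family kinase that binds the cytoplasmic part of NCAM1, had 83.5, 81.5 and 75.5 CPM in the controls and 78.2, 78.2 and 85.9 CPM with the antibody. Its groups overlapped as well, with a log2 fold change of 0.01 ± 0.09.

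Gdnf, the ligand that was not added here, was transcribed by the cells themselves, at 14.9, 12.1 and 14.9 CPM in the controls and at 9.90, 11.3 and 10.5 CPM with the antibody. Every antibody culture lay below every control, by -0.39 ± 0.15 on the log2 scale, but Gdnf did not pass correction over all genes (unadjusted p = 0.0157, edgeR adjusted p = 0.852). With the GC and length trend removed in the 6 libraries, the value was -0.37. Fgfr1, the receptor through which NCAM1 signals, had 275, 294 and 276 CPM in the controls and 238, 269 and 246 CPM with the antibody. Its groups did not overlap either, with a log2 fold change of -0.17 ± 0.08 (unadjusted p = 0.0404), which was -0.07 with the trend removed. The downstream members with the smallest p, Hras, a Ras GTPase, and Araf, a RAF kinase, were named for that reason and showed the same order of groups. They were at -0.27 ± 0.11 and -0.27 ± 0.11, and neither passed correction. Both stayed below the control mean with the trend removed, at -0.21 and -0.32.

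Over all 34 tested genes of NCAM1 adhesion and signalling, 13 lay above and 21 below the control mean, with a median log2 fold change of -0.03, beside 0.00 for all 11332 tested genes. With the trend removed the median was -0.01 and 14 of the 34 lay above the control mean, and without control replicate 1 it was -0.02. An unadjusted p under 0.05 was reached by 5 of the 34, all lower with the antibody, where the share of all genes that were lower at that p was 2.67% and the share that were higher was 2.61%. The most abundant members, Sptan1 and Sptbn1, which encode the spectrin chains that link NCAM1 to the membrane skeleton, were at -0.07 ± 0.07 and 0.01 ± 0.08, and at 0.01 and 0.02 with the trend removed. Of the other GDNF family ligands, Artn was at -0.14 ± 0.26 and the more distant Gdf15 at -0.53 ± 0.27, and with the trend removed they were at -0.02 and -0.42. The receptors that bind antibody were also low or level: Fcgr2b was at 1.03 to 1.92 CPM in the 6 libraries, and Fcgrt, the neonatal Fc receptor, was at 0.11 ± 0.17 on the log2 scale.

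**Figure D2:**
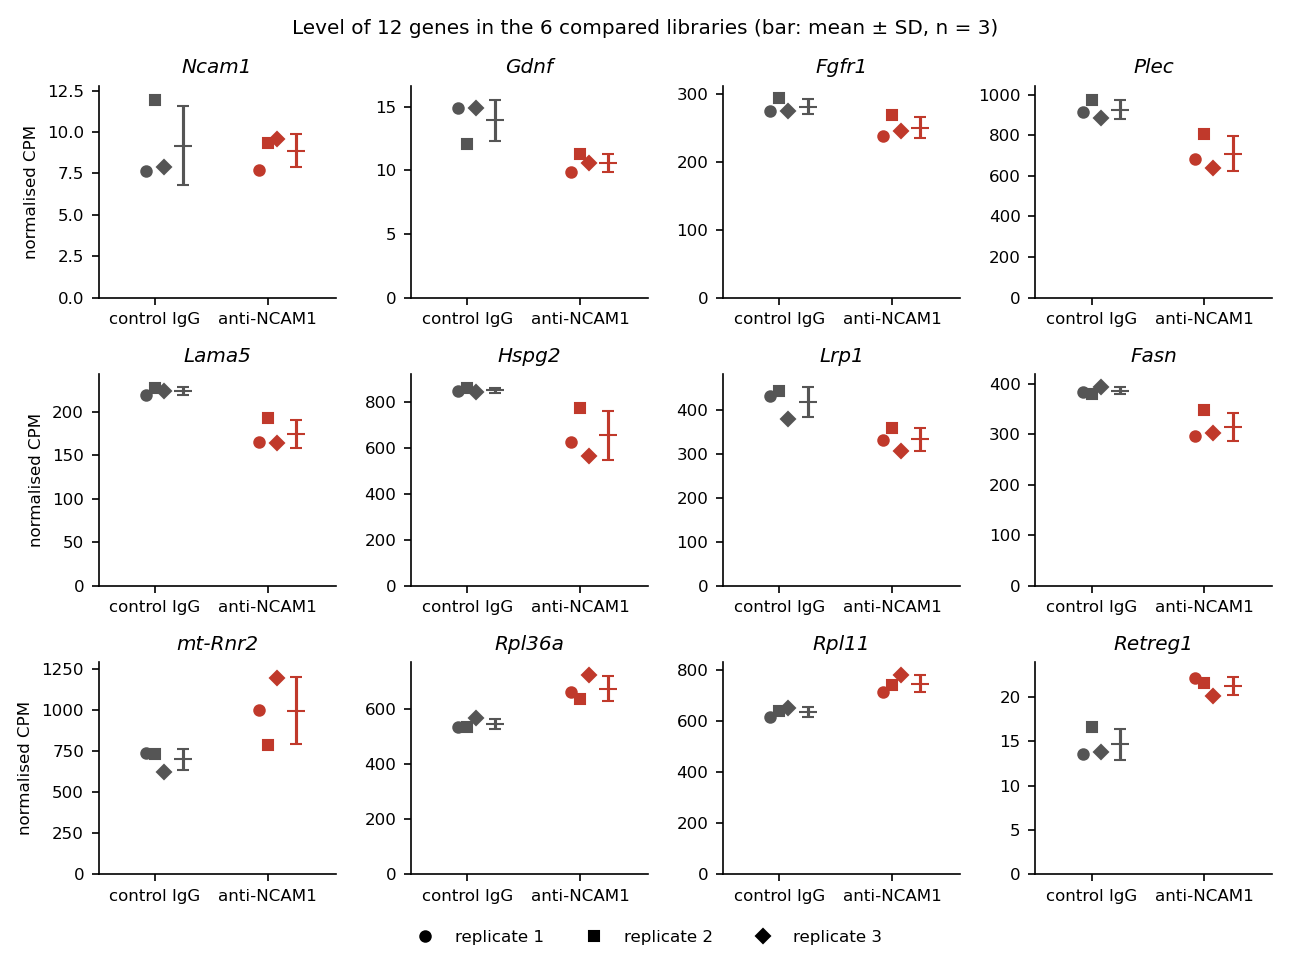
Normalised CPM (vertical axes, from 0) of 12 genes in each of the 3 control IgG and 3 anti-NCAM1 libraries, with a symbol per replicate and bars for the mean ± SD (n = 3). Ncam1 overlaps between the groups, and Plec, Lama5, Hspg2, Lrp1 and Fasn are lowest in antibody replicates 1 and 3 and lie between those and the controls in antibody replicate 2.

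Across the transcriptome, no gene passed correction in the model of all 12 libraries: 0 of 11332 genes (0%) had an adjusted p under 0.05 by edgeR's quasi-likelihood test, and the smallest adjusted p was 0.852. An unadjusted p under 0.05 was reached by 599 genes with edgeR, 440 with DESeq2 and 604 with limma-voom, and these tools likewise called 0. Without GDNF replicate 3, which had the steepest GC trend of the 12 libraries, edgeR called 8 genes, 7 of them lower. That library also held 10.2% mitochondrial transcripts, against 4.11 to 5.29% in the others. Its share of the most abundant feature was 0.543%, against 3.79 to 9.84% in the others. It entered the shared estimate of the spread, and the part of these traits in the calls was not tested. The differences between antibody and control were small. The median size of the log2 fold change was 0.10 and the median half-width of its 95% interval was 0.27, and 227 genes differed by more than 1.5-fold and 27 by more than 2-fold in either direction. On simulated counts of this comparison with 11332 genes, 53% of genes changed 1.5-fold and 83% of genes changed 2-fold were recovered. The simulated libraries carried no trend on GC content or length, so these rates need not hold for the real ones. The groups did not overlap for 1022 genes (9.02%) that were higher with the antibody and for 890 genes (7.85%) that were lower.

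Genes with predicted or clone-derived names were left out of the ranking by p. Among the remaining genes higher with the antibody, the smallest p belonged to Retreg1. Retreg1, a receptor for the selective autophagy of endoplasmic reticulum, had 13.6, 16.7 and 13.8 CPM in the controls and 22.1, 21.6 and 20.1 CPM with the antibody. The groups did not overlap, with a log2 fold change of 0.53 ± 0.13 (unadjusted p = 0.000701, edgeR adjusted p = 0.852) and 0.48 with the trend removed. Retreg1 was picked for its small p, so the gap between its groups is no further support. Ube2v2, a partner of a ubiquitin-conjugating enzyme, was at 0.35 ± 0.10, and at 0.21 with the trend removed. Rpl11, a protein of the large ribosomal subunit, had 615, 637 and 651 CPM in the controls and 714, 740.2 and 780.2 CPM with the antibody, a difference of 0.23 ± 0.06 that was 0.19 with the trend removed. Snrpe, a core protein of spliceosomal particles, was at 0.26 ± 0.08 and at 0.07 with the trend removed.

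On the lower side the smallest p in the same ranking belonged to Sipa1l3, a member of a family of activators of Rap GTPase hydrolysis. It had 88.0, 93.5 and 91.3 CPM in the controls and 68.4, 76.8 and 66.8 CPM with the antibody. Its log2 fold change was -0.36 ± 0.08 (unadjusted p = 0.000513, edgeR adjusted p = 0.852) and -0.20 with the trend removed. Rgmb, a co-receptor for bone morphogenetic proteins that also binds neogenin, had 16.2, 21.4 and 19.4 CPM in the controls and 13.3, 13.8 and 13.0 CPM with the antibody. Its difference of -0.51 ± 0.14 did not shrink when the trend was removed, at -0.52. The same held for Lman2l, a lectin of the early secretory pathway, at -0.56 ± 0.16 and -0.57. Iqsec1, an activator of ARF GTPases, was at -0.44 ± 0.12 and -0.37, and Crocc, which encodes the rootletin of the ciliary rootlet, at -0.45 ± 0.12 and -0.23. Sec16a, which organises the exit sites of the endoplasmic reticulum, was at -0.24 ± 0.07 and -0.16. None of these genes passed correction in the model of 12 libraries.

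A fit to the 6 compared libraries alone did call genes. The common biological coefficient of variation was then 0.0547, against 0.0917 with all 12, and 33 genes had an adjusted p under 0.05. Of these, 11 were higher with the antibody (0.0971% of the genes tested) and 22 were lower (0.194%), with log2 fold changes of 0.23 to 0.51 in size. The calls rested on antibody replicates 1 and 3: without either of them 0 genes were called, with 1387 called when antibody replicate 2 was left out, and with 23, 7 and 19 called without control replicates 1, 2 and 3. The genes differed from the rest in base composition. The 11 higher genes had a median transcript GC content of 40.8% and a median length of 987 bases, the 22 lower genes 57.9% and 9432 bases, and all tested genes 49.6% and 3315 bases.

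**Figure D3:**
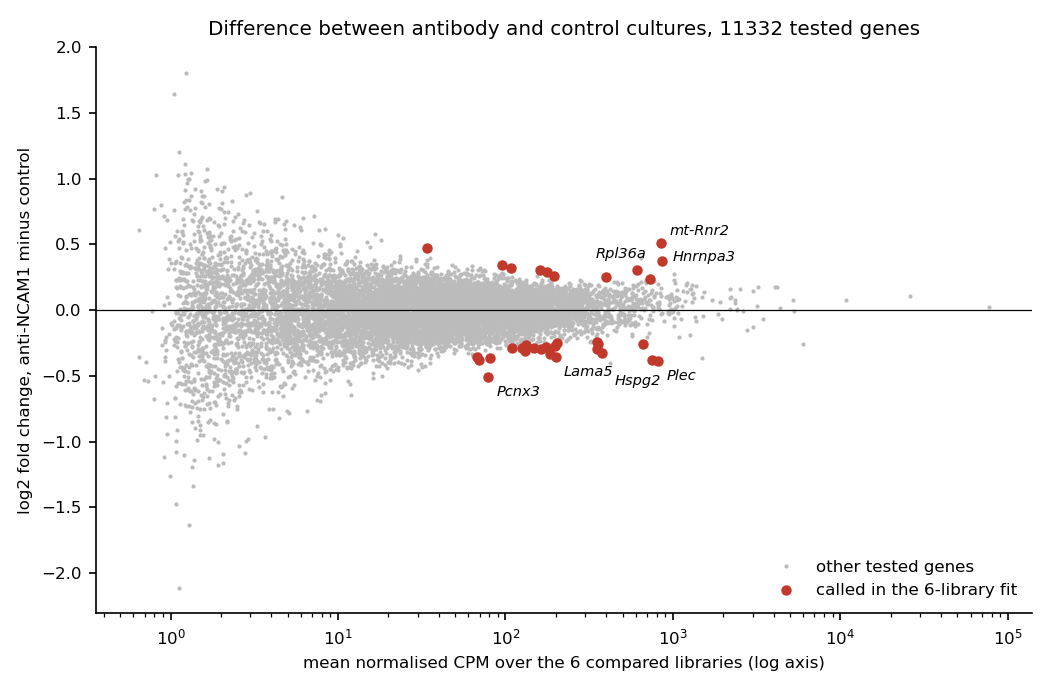
Log2 fold change of antibody over control in the model of 12 libraries (vertical axis) against mean normalised CPM of the 6 compared libraries (log axis), for 11332 tested genes in grey. The 33 genes called when only the 6 libraries were fitted are in red and lie among the genes with more counts, 11 above and 22 below zero.

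The 22 lower genes are described by the role each is known for, and the grouping was made after they were seen. Plec encodes plectin, which links intermediate filaments to hemidesmosomes, and it had 916.5, 975 and 887 CPM in the controls and 682, 805 and 639 CPM with the antibody. Every antibody culture lay below every control, by -0.39 ± 0.06 (SE, n = 3 against 3; edgeR adjusted p = 0.00124 with the 6 libraries). Lama5, the α5 chain of laminin in basement membranes, had 219.5, 228 and 225 CPM in the controls and 166, 193 and 165 CPM with the antibody, a log2 fold change of -0.36 ± 0.06 (edgeR adjusted p = 0.00124). Hspg2 encodes perlecan, the heparan sulfate proteoglycan of the same membranes. It had 848, 861 and 843 CPM in the controls and 628, 772 and 565 CPM with the antibody, a log2 fold change of -0.38 ± 0.07 (edgeR adjusted p = 0.00353). Lrp1, an endocytic receptor for matrix proteases and lipoproteins, was at -0.33 ± 0.06, Plxna1, a receptor for semaphorins, at -0.28 ± 0.06, and Ltbp4, which holds latent TGF-β in the matrix, at -0.29 ± 0.07. In each of these 6 genes antibody replicate 2 lay closest to the controls. With the GC and length trend removed none of the 6 was called, at -0.15 for Plec, -0.16 for Lama5, -0.16 for Hspg2, -0.14 for Lrp1, -0.13 for Plxna1 and -0.10 for Ltbp4.

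Fasn, the fatty acid synthase, had 384, 379.6 and 393 CPM in the controls and 296, 347 and 301.5 CPM with the antibody, a log2 fold change of -0.30 ± 0.06 (edgeR adjusted p = 0.00800) and -0.13 with the trend removed. Slc6a9, a glycine transporter, was at -0.32 ± 0.06, and Slc7a5, the large neutral amino acid transporter, at -0.26 ± 0.06. Their groups did not overlap, and their values with the trend removed were -0.21 and -0.16. Kmt2d, a histone lysine methyltransferase of enhancers, had 210.3, 229 and 178 CPM in the controls and 169, 161 and 158 CPM with the antibody, a log2 fold change of -0.34 ± 0.07 that was -0.12 with the trend removed. Ipo13, an importin, was at -0.38 ± 0.08, and Ubr4, a ubiquitin ligase that reads the amino termini of proteins, at -0.26 ± 0.06, with -0.26 and -0.12 once the trend was removed. With the trend removed, Pcnx3 was the lower gene of the 33 that was still called. It had 87.2, 96.0 and 95.7 CPM in the controls and 61.1, 79.5 and 55.3 CPM with the antibody, a log2 fold change of -0.51 ± 0.09 (edgeR adjusted p = 0.00131) and -0.33 ± 0.07 with the trend removed (edgeR adjusted p = 0.0135).

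The largest difference among the 11 higher genes was in mt-Rnr2, the large ribosomal RNA of mitochondria, with 739, 731 and 623 CPM in the controls and 1002, 787 and 1195 CPM with the antibody. The log2 fold change was 0.51 ± 0.08 (edgeR adjusted p = 0.00124), and 0.31 ± 0.06 with the trend removed (edgeR adjusted p = 0.00704). The small ribosomal RNA mt-Rnr1 had 642, 625 and 397 CPM in the controls and 848, 493 and 850.4 CPM with the antibody, so that its groups overlapped. The most abundant feature of the table held 9.36, 8.93 and 4.80% of counts in control replicates 1 to 3. With the antibody it held 9.28, 3.79 and 9.84%. Like that feature, mt-Rnr1 and mt-Rnr2 were lowest within their groups in control replicate 3 and antibody replicate 2. Whether their differences follow that share was not tested. Hnrnpa3, which binds and carries mRNA, had 739, 737 and 790 CPM in the controls and 1083, 787 and 1059 CPM with the antibody. It was the gene of the 33 whose groups overlapped, since antibody replicate 2 lay within the controls, and its log2 fold change was 0.37 ± 0.07, or 0.27 with the trend removed. Snrpd1, a core protein of spliceosomal particles, was at 0.34 ± 0.07, Vps13a, a lipid transfer protein of membrane contact sites, at 0.28 ± 0.06, and Hspa13, a member of the heat shock protein family, at 0.26 ± 0.06. They were at 0.18, 0.23 and 0.17 with the trend removed. Gm10925, annotated as an unprocessed pseudogene, was at 0.47 ± 0.11, and at 0.23 with the trend removed, and its reads cannot be separated with certainty from those of a near-identical copy.

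The ribosomal proteins Rpl36a, Rpl39, Rps14 and Rps27 made up 4 of the 11 higher genes, where 81 of the 11332 genes tested encode ribosomal proteins. Rpl36a had 533.5, 533 and 567 CPM in the controls and 662, 633.5 and 721.5 CPM with the antibody, a log2 fold change of 0.30 ± 0.06 (edgeR adjusted p = 0.00619). Rps27 had 337, 363.5 and 383 CPM in the controls and 437, 414.5 and 440.3 CPM with the antibody, at 0.25 ± 0.06. The groups were apart in both, with antibody replicate 2 the lowest of its group, and the values with the trend removed were 0.20 and 0.23. In the model of 12 libraries the errors were larger. Rpl36a was at 0.30 ± 0.09 there (edgeR unadjusted p = 0.00380). Rpl39 was at 0.30 ± 0.15, Rps27 at 0.25 ± 0.22 and Rps14 at 0.24 ± 0.25, with edgeR unadjusted p of 0.0557, 0.268 and 0.350. Genes of ribosomal proteins have many processed pseudogenes, and reads may have been split among such copies, so the values of single genes are uncertain to that extent.

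Removing the GC and length trend from the 6 libraries changed which genes were called. A total of 17 genes were then higher with the antibody (0.15%) and 2 lower (0.0176%), and 7 of these 19 were among the 33. Of the 17 higher genes, 9 encode ribosomal proteins: Rpl11, Rpl21, Rpl26, Rpl35, Rpl36a, Rpl38, Rps14, Rps15a and Rps27, again beside 81 of all genes tested, and no enrichment was tested. Several of them are named here because their values were seen. Tpt1, whose mRNA is controlled at translation like those of ribosomal proteins, was also among the 17, with a log2 fold change of 0.19 ± 0.04. The 17 had a median GC content of 53.1%, above that of all genes, and a median length of 987 bases. Lower than the controls after the removal were Pcnx3 and mt-Nd6, a respiratory chain subunit that is encoded on the other strand of the mitochondrial genome from most of its genes. mt-Nd6 had 356, 351 and 349 CPM in the controls and 290.5, 339.5 and 266 CPM with the antibody, a log2 fold change of -0.24 ± 0.06 in the 6 libraries before the removal, where it was not called (edgeR adjusted p = 0.0650), and of -0.49 ± 0.07 after it. With the same removal in the model of 12 libraries, 0 genes were called.

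**Figure D4:**
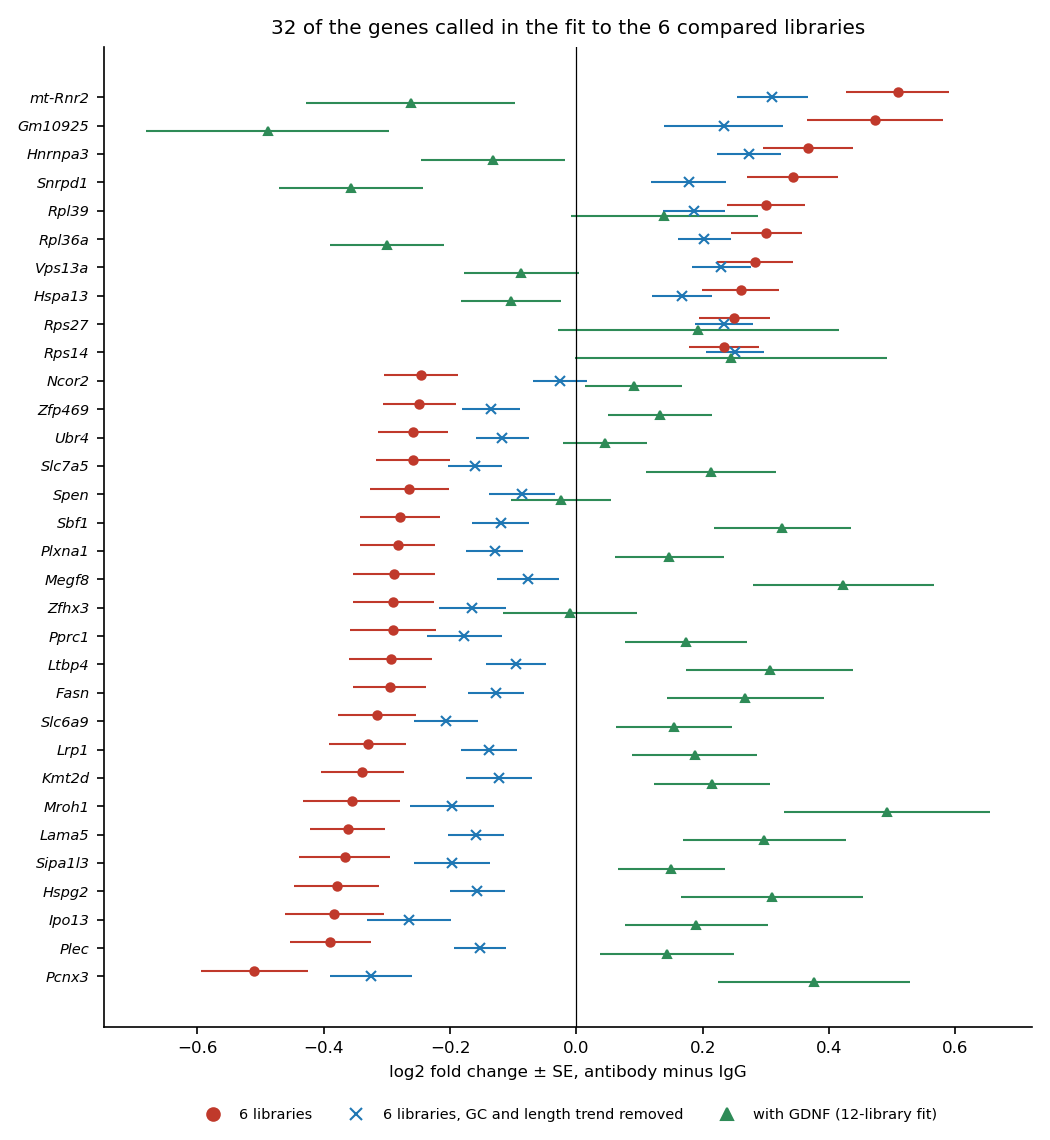
Log2 fold change ± SE of antibody over IgG (horizontal axis) for 32 of the 33 genes called in the 6 compared libraries, from that fit (circles), with the GC and length trend removed (crosses) and between the cultures that had GDNF (triangles). The crosses of the 22 lower genes lie nearer to zero than their circles (-0.15 against -0.39 for Plec), and 5 of the triangles lie on the same side of zero as their circle.

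The start regions of ribosomal protein genes carry short pyrimidine-rich runs in mammals, through which their mRNAs are controlled at translation as a class, and many hold ETS-type sites. The windows below show 7 of the 9 ribosomal protein genes called with the trend removed, without Rpl21 and Rps14, and Rpl39, called before the removal. They can be read beside 2 genes called lower. Of the 8 ribosomal windows, those of Rpl36a and Rpl39 hold neither motif, and nor do those of Lama5 and Hspg2. Each is 50 bases on the transcribed strand, 30 before and 20 from the RefSeq start onwards (GRCm38.p6). Capitals mark CTTTC on the transcribed strand and CCGGAAG on either strand, a pair of motifs chosen after the windows were seen and not overlapping in them. The windows are Rps27 (chr3:90213629-90213678, minus strand), Rpl35 (chr2:39005112-39005161, minus strand), Rpl38 (chr11:114668550-114668599, plus strand), Rps15a (chr7:118116128-118116177, minus strand), Rpl26 (chr11:68901536-68901585, plus strand), Rpl11 (chr4:136053374-136053423, minus strand), Rpl36a (chrX:134585624-134585673, plus strand), Rpl39 (chrX:37085203-37085252, minus strand), Lama5 (chr2:180225840-180225889, minus strand) and Hspg2 (chr4:137468773-137468822, plus strand).
Rps27: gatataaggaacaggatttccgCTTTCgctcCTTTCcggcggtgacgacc
Rpl35: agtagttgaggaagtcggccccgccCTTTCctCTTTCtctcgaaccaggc
Rpl38: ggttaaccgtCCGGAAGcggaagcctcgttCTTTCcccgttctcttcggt
Rps15a: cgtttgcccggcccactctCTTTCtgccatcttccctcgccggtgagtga
Rpl26: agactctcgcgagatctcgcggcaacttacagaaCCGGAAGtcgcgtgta
Rpl11: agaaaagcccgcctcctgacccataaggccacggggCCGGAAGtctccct
Rpl36a: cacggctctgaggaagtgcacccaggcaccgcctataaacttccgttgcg
Rpl39: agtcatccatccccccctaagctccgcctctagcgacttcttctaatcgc
Lama5: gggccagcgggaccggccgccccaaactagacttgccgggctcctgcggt
Hspg2: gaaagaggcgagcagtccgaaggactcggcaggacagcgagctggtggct

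Over the tested ribosomal protein genes with a window in the RefSeq table, CTTTC was in 20 of 60 (33.3%), beside 610 of 8656 tested genes of any kind (7.05%). CCGGAAG was in 12 of the 60 (20%) and in 841 of the 8656 (9.72%). The 60 include the ribosomal windows shown above, and the motifs were chosen after those were seen. These shares are therefore descriptions and do not test the motifs. Among the 15 genes of the 22 lower ones that had a window, 1 held CTTTC (6.67%) and 0 held CCGGAAG, and among the 5 of the 11 higher ones that had a window the counts were also 1 and 0. A match describes the letters of the window and is not a measured site.

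Beyond single genes, the groups of genes were described by counts and medians. In all tested genes, 5793 lay above and 5539 below the control mean. Of 47 tested proteins of the large ribosomal subunit, 42 lay above the control mean, with a median log2 fold change of 0.12. Groups did not overlap for 23 of the 47, all higher, beside 9.02% of all genes. An unadjusted p under 0.05 was reached by 12, all higher, beside 2.61% of all genes, and 2 were called in the 6 libraries, beside 0.0971%. The mean level of the list was 0.08, 0.11 and 0.16 above the control mean in antibody replicates 1 to 3 and -0.02, -0.03 and 0.05 in the controls, so that each antibody culture lay above each control. Of 34 tested proteins of the small subunit, 27 lay above the control mean, with a median of 0.11, or 0.07 without antibody replicate 3, and 13 with groups apart, all higher. There the level was 0.04 in antibody replicate 1 and also 0.04 in control replicate 3. With the trend removed in the 6 libraries, the medians were 0.08 and 0.04. The most abundant members differed little: Rplp0 was at -0.01 ± 0.10, Rpl10 at 0.08 ± 0.13, Rps2 at 0.01 ± 0.13 and Rpsa at 0.07 ± 0.08, and with the trend removed Rpl10 was at -0.05.

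Translation factors, which recruit and move ribosomes, lay above the control mean for 31 of 50 tested members, with a median of 0.03 that was 0.01 with the trend removed or without control replicate 2. Eif2s1, the α subunit of the factor that brings the initiator tRNA, was at 0.18 ± 0.08, and Eef1a1 and Eef2, the main elongation factors, at 0.08 ± 0.09 and -0.06 ± 0.11. These were 0.08, 0.01 and 0.03 with the trend removed, so that Eef2 changed sign. Of 77 tested mitochondrial ribosomal proteins 51 lay above the control mean, with a median of 0.05, and of 77 nuclear-encoded subunits of the respiratory chain and ATP synthase 57 did, with a median of 0.07. The medians were 0.01 and 0.02 with the trend removed, and that of the respiratory chain was 0.04 without antibody replicate 3. Cox6c, a subunit of cytochrome oxidase, had 112, 122 and 129.9 CPM in the controls and 136, 143 and 149 CPM with the antibody, a log2 fold change of 0.23 ± 0.10 and 0.19 with the trend removed. Ndufb1-ps, a complex I subunit despite its name, had 29.4, 28.7 and 33.9 CPM in the controls and 37.3, 41.5 and 42.8 CPM with the antibody. Its log2 fold change was 0.40 ± 0.11, and it was called with the trend removed in the 6 libraries (edgeR adjusted p = 0.0339). The 12 genes encoded in the mitochondrial genome had a median of 0.17 that was -0.03 with the trend removed, 0.27 without antibody replicate 2 and 0.10 without antibody replicate 3. Their level was 0.22, 0.02 and 0.29 above the control mean in antibody replicates 1 to 3.

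Guidance receptors and ligands, through which neurons and epithelial cells respond to neighbours, lay lowest of the lists with at least 10 tested members. Of 27 tested members 25 lay below the control mean, with a median of -0.18 beside 0.00 for all genes, and 12 had groups that did not overlap, all lower, beside 7.85% of all genes. The level of the list was -0.19, -0.09 and -0.19 in antibody replicates 1 to 3 and -0.02, 0.04 and -0.03 in the controls. Slit1, a ligand of ROBO receptors, had 23.7, 26.2 and 23.5 CPM in the controls and 18.1, 19.2 and 18.2 CPM with the antibody, a log2 fold change of -0.40 ± 0.13 and -0.25 with the trend removed. Unc5a, a netrin receptor, was at -0.34 ± 0.15, and Plxnb2 and Nrp2, receptors for semaphorins, were at -0.16 ± 0.08 and -0.09 ± 0.07. These were at -0.15, -0.02 and -0.04 with the trend removed. The median GC content of the list was 57.3%, and its median log2 fold change with the trend removed was -0.06, with 7 of 27 then above the control mean.

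Genes that ERK signalling induces, and those that feed back on it, lay below the control mean for 37 of 44 tested members, with a median of -0.11, or -0.07 without antibody replicate 3. Groups did not overlap for 14, all lower, beside 7.85% of all genes, and 4 had an unadjusted p under 0.05, all lower, beside 2.67%. Jund, an AP-1 subunit, had 78.7, 84.7 and 85.0 CPM in the controls and 56.3, 76.5 and 68.6 CPM with the antibody. Its log2 fold change was -0.30 ± 0.12, and -0.11 with the trend removed. Srf, the transcription factor of immediate early genes, was at -0.29 ± 0.11, and Jun at -0.20 ± 0.09, and these were -0.10 and -0.12 with the trend removed. The abundant members Myc and Ccnd1, which drive growth and the cell cycle, were at -0.07 ± 0.10 and 0.03 ± 0.07, with overlapping groups. With the trend removed the median of the list was -0.06, with 8 of 44 above the control mean, and no member was called in any of these fits. The level of the list was -0.12, -0.04 and -0.15 in antibody replicates 1 to 3 and -0.04, 0.02 and 0.02 in the controls.

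**Figure D5:**
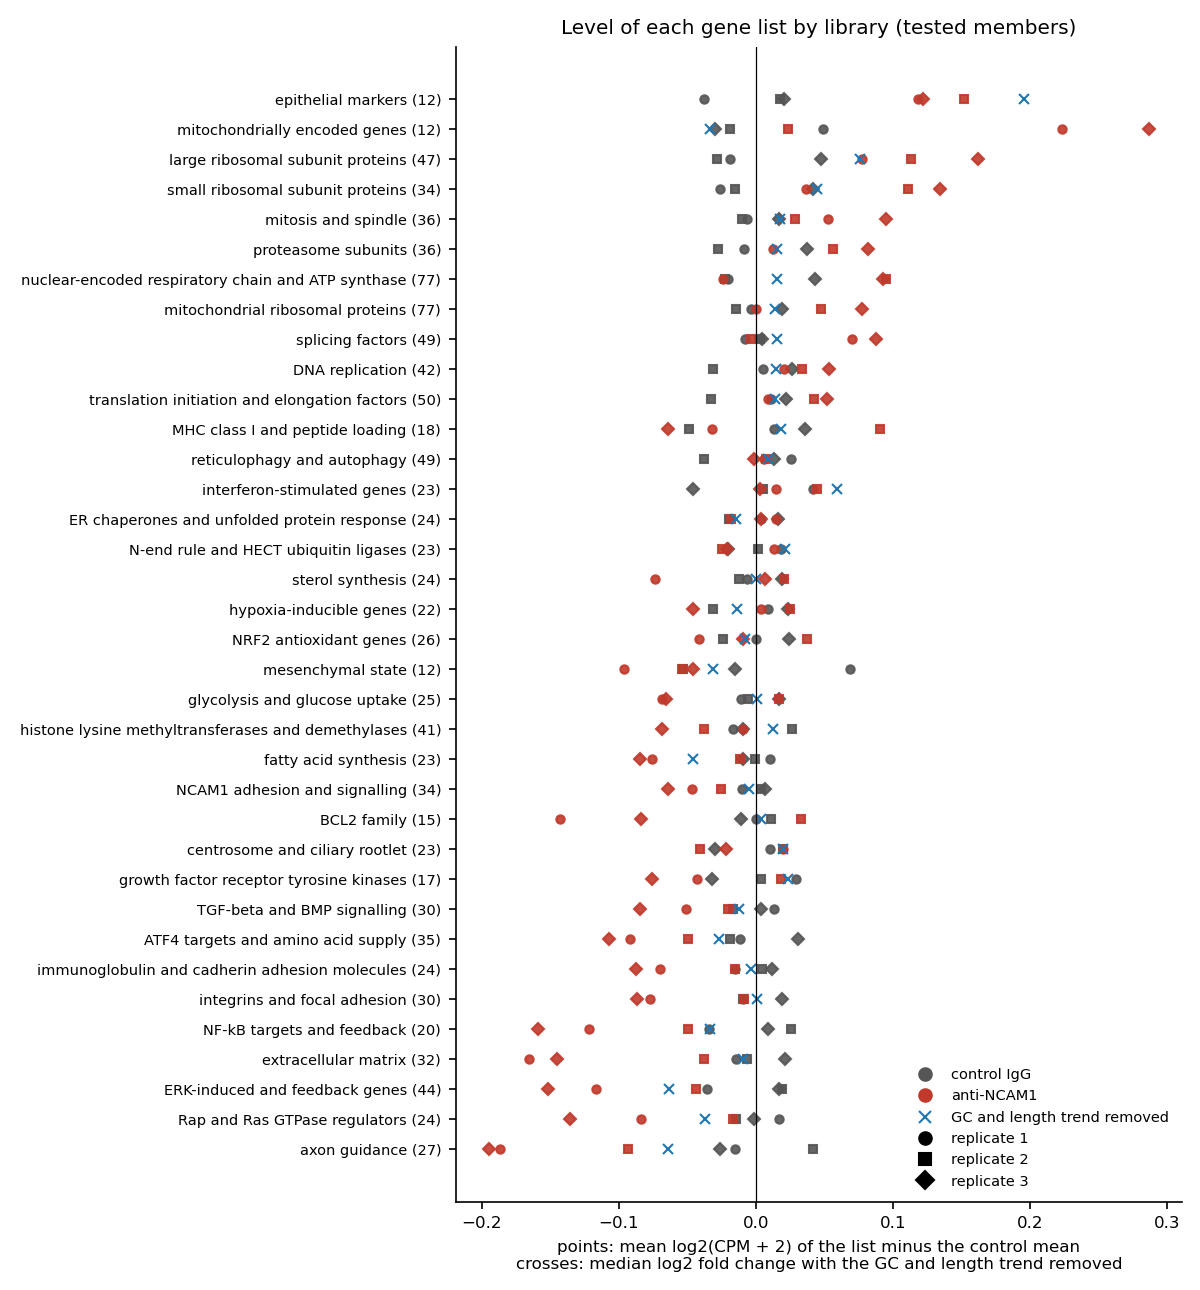
Mean log2(CPM + 2) of the tested members of each gene list minus the control mean (horizontal axis) in the 3 control (grey) and 3 antibody libraries (red), with crosses for the median log2 fold change after trend removal and the number of tested members in brackets. Axon guidance genes are lowest in antibody replicates 1 and 3, and their cross lies at -0.06.

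Extracellular matrix genes lay below the control mean for 28 of 32 tested members, with a median of -0.11 and 11 members with groups apart, all lower, beside 7.85% of all genes, but the median was -0.01 with the trend removed. Besides Lama5 and Hspg2, Col6a3 had 1181, 1164 and 1143 CPM in the controls and 1046, 1034 and 954 CPM with the antibody, at -0.20 ± 0.08 and at -0.09 with the trend removed. Integrins and focal adhesion proteins, which attach cells to that matrix, had a median of -0.09 over 30 tested members and 0.00 with the trend removed. Zyx, the zyxin of focal adhesions, was at -0.24 ± 0.10, and Flna and Tln1, the actin crosslinker filamin A and the integrin activator talin, were at -0.13 ± 0.09 and -0.15 ± 0.08. The 3 were at -0.14, -0.03 and -0.01 with the trend removed. Adhesion molecules of the immunoglobulin superfamily, to which NCAM1 belongs, and of the cadherin family had a median of -0.06 over 24 tested members. It was 0.00 with the trend removed, with 12 of 24 above the control mean, -0.03 without antibody replicate 1 and -0.09 without antibody replicate 2. The atypical cadherin Fat1 was at -0.21 ± 0.08, and at -0.12 with the trend removed. The level of β-catenin, the cadherin partner encoded by Ctnnb1, was 569, 547 and 581 CPM in the controls and 576, 552.5 and 574 CPM with the antibody, and the groups overlapped.

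Of 34 listed epithelial markers 12 were tested, 21 averaged under 3 counts per library and 11 of these had no counts. Of the 12, 10 lay above the control mean, with a median of 0.23 and, after trend removal, of 0.20. Their log2 fold changes ran from -0.06 to 0.65. Without antibody replicate 2 the median was 0.105. In the model of 12 libraries 1 of the 12 had an unadjusted p under 0.05, in the higher direction, beside 2.61% of all genes. Groups did not overlap for 2, all higher, beside 9.02% of all genes. The level of the tested members was 0.12, 0.15 and 0.12 in antibody replicates 1 to 3 and -0.04, 0.02 and 0.02 in the controls. Each antibody culture lay above each control, with antibody replicate 2 the highest. Epcam, an epithelial adhesion molecule, had 14.2, 13.5 and 13.2 CPM in the controls and 18.1, 17.1 and 15.7 CPM with the antibody, a log2 fold change of 0.32 ± 0.13 (unadjusted p = 0.0233, edgeR adjusted p = 0.852). Erbb3, a receptor of the EGF receptor family, was at 0.35 ± 0.22 with overlapping groups. Krt8, the keratin of simple epithelia and the most abundant member, was at 0.08 ± 0.07, with overlapping groups. These 3 were at 0.34, 0.40 and 0.15 with the trend removed. The mesenchymal list had a median of -0.02 over 12 tested members. Its abundant members Vim and Acta2 were at -0.01 ± 0.08 and 0.04 ± 0.06, and Axl, a receptor kinase of mesenchymal tumour cells, was at -0.10 ± 0.08, and at -0.03 with the trend removed.

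Genes tied to glucose and amino acid supply were compared between antibody and IgG too. All cultures shared the low-glucose medium, so the response to low glucose itself could not be measured. Over 25 tested genes of glycolysis and glucose uptake, 7 lay above and 18 below the control mean, with a median of -0.02, and 0 had an unadjusted p under 0.05 with edgeR. Slc2a1, the glucose transporter, had 167, 171 and 179 CPM in the controls and 149, 164 and 154 CPM with the antibody, a log2 fold change of -0.15 ± 0.09 and -0.09 with the trend removed. Targets of ATF4, the transcription factor of amino acid shortage, had a median of -0.06 over 35 tested members, 24 of them below the control mean. It was -0.03 with the trend removed and, without control replicate 2 or antibody replicate 2, -0.10 and -0.11. Besides Slc7a5 and Slc6a9, Chac1, which degrades glutathione, had 13.9, 15.5 and 16.3 CPM in the controls and 10.8, 13.0 and 12.3 CPM with the antibody, at -0.34 ± 0.13 and at -0.28 with the trend removed. The transcript of Atf4 itself was at 0.03 ± 0.11. Sets of NF-κB targets and of Rap and Ras regulators had medians of -0.11 over 20 and -0.11 over 24 tested members, and of -0.03 and -0.04 with the trend removed. Without antibody replicate 3 they were -0.05 and -0.05.

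The same antibody was also added in the presence of GDNF, where cultures with GDNF and antibody were compared with cultures with GDNF. No cultures were shared between these comparisons. The log2 fold changes had the same sign in 3906 of the 11332 genes (34.5%) and in 5 of the 33 genes called above (15.2%). For the 22 lower genes the median was -0.29 without GDNF and 0.19 with it, and for the 11 higher genes 0.30 and -0.12. Plec was at 0.14 ± 0.11, Lama5 at 0.30 ± 0.13 and Rpl36a at -0.30 ± 0.09 in the presence of GDNF, against -0.39, -0.36 and 0.30 without it. The test of the difference between the effects called 0 genes with edgeR, with DESeq2 and with limma-voom, with 1901, 1650 and 1965 genes at an unadjusted p under 0.05 and a smallest edgeR adjusted p of 0.240. With edgeR it called 1885 genes without GDNF replicate 1 and 14 without GDNF replicate 3. The GDNF cultures carried the trend on GC content as well: the slope of level on GC content, relative to the mean of all 12 libraries, was 0.08, -0.16 and -0.34 in GDNF replicates 1 to 3 and 0.05 to 0.07 with GDNF and antibody. It was 0.08 to 0.12 in the controls and -0.08, 0.09 and -0.09 with the antibody alone, and the part of the trend in the opposite signs was not tested.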

How the data were processed

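Per the labels' protocols, total RNA of 12 cultures was made into libraries by standard Illumina methods. The authors deposited 1 table of raw counts per gene, whole numbers with no scaling, for 55414 gene IDs. Tools named in the submitters' processing notes are kallisto 0.46.2, FastQC and MultiQC, with the builds GRCm39 and mm10. Which of those builds was used and how reads were assigned to strands or to similar genes are not given in the sources used here. Symbols were found for 52081 IDs. The chromosomes and sequences shown come from the reference (GRCm38).

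edgeR's filterByExpr (minimum count 10, minimum total 15) left 11332 genes. After TMM scaling, edgeR 4.0.16 (R 4.3.3) fitted 4 groups without covariates, with 2-sided quasi-likelihood F tests and Benjamini-Hochberg adjustment over all tested genes at 0.05. Standard errors were derived from the fold change and F. A list's level is the mean of log2(CPM + 2), with a pseudocount of 2, minus the control mean. The trend of each library on GC content and length of the longest transcript, known for 11313 tested genes (99.8%), was removed by lowess (span 0.3). Alternatives were the 6 compared libraries alone, DESeq2 1.42.0, limma-voom (limma 3.58.1), quality weights, other scalings and filters, robust estimation, a replicate block, removal of the most abundant feature with mitochondrial genes, and each library left out. Trend removal without GDNF replicate 3, and the fit without GDNF replicates 2 and 3, were chosen after seeing the data. The test was tested on simulated counts without a GC or length trend, where 0 genes were called with no gene changed. In the simulation with changed genes, 8 unchanged genes were called with 12 libraries and 11 with the 6 compared libraries.

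Genes named were up to 10 in each direction by p in the model of 12 libraries, up to 10 in each direction among those called in the 6 libraries, 6 genes around NCAM1 and GDNF, and the 3 smallest p and 2 most abundant members of each list. The ranking by p in the model of 12 libraries left out genes with predicted or clone-derived names. Other genes were chosen after their values were seen. The comparison and the gene lists were chosen with earlier results of these data known. Results of a few genes are not reported here.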

Additional observations from a re-analysis of the deposited data

How the results depend on the processing

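In the model of 12 libraries 0 genes were called, and also with DESeq2 with or without independent filtering, limma-voom, every other scaling, filters of 1 or 5 CPM, robust estimation, trend removal and the table without the most abundant feature and mitochondrial genes. More were called with quality weights (278), with no filter on low counts (8), without GDNF replicate 3 (8, all of them among the 33, in a range of 0 to 8 over the 12 libraries left out in turn), without GDNF replicates 2 and 3 (197), with the trend removed and GDNF replicate 3 left out (7), and in the 6 libraries alone (33, or 19 with the trend removed, and 23, 7 and 19 without control replicates 1, 2 and 3, 0 without antibody replicate 1 or 3 and 1387 without antibody replicate 2). The cause of these differences was not tested. The labels do not say whether replicate numbers pair the libraries. The deviations of same-numbered cultures correlated at 0.04, -0.02 and 0.02. The GC trends of single libraries entered those deviations as well, so the correlations do not settle the pairing. With the replicate block 0 genes were called in 12 libraries and 110 in 6. The difference between the effects with and without GDNF gave 0 calls, or 403 with no filter, and 0 to 1885 over the libraries left out in turn, 1885 without GDNF replicate 1 and 14 without GDNF replicate 3. No gene that the rule named from the 33 changed sign under any of the 37 settings. Ncam1 did in 4. The medians of the lists of mitochondrially encoded genes, glycolysis, integrins, BCL2 family, centrosome, histone methylation and receptor kinases changed sign with the trend removed. So did those of ER chaperones, sterol synthesis and fibroblast markers. Low depth limits genes such as Gfra1 and Ret, which were under 3 counts per library.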

Other observations

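Genes of mitosis and the spindle lay above the control mean for 26 of 36 tested members, with a median log2 fold change of 0.07 that was 0.02 with the GC and length trend removed and 0.03 without antibody replicate 3. Mad2l1, a protein of the spindle checkpoint, had 89.7, 81.5 and 90.2 CPM in the controls and 101, 102.5 and 113 CPM with the antibody, at 0.27 ± 0.10 and at 0.20 with the trend removed. Genes of DNA replication had a median of 0.04 over 42 tested members, or 0.01 with the trend removed or without antibody replicate 3, with Gins3, a subunit of the replicative helicase complex, at 0.48 ± 0.16 and Mcm7, a helicase subunit, at -0.02 ± 0.06. Proteasome subunits lay above the control mean for 29 of 36, with a median of 0.07 that was 0.02 with the trend removed and 0.04 without antibody replicate 3, and none was called.

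Innate immune genes did not share a direction. Among interferon-stimulated genes 12 of 23 tested members lay above the control mean. Parp9, an ADP-ribosyltransferase family member induced by interferon, had 9.80, 6.92 and 8.87 CPM in the controls and 11.6, 11.7 and 12.8 CPM with the antibody, at 0.50 ± 0.16. Parp10, of the same family, was at -0.44 ± 0.17. Genes of sterol synthesis had 12 of 24 above the control mean. Hsd17b7, an enzyme of that pathway, was at 0.34 ± 0.13. None of these genes passed correction in the model of 12 libraries.

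In the histone lysine methyltransferases and demethylases, 18 of 41 tested members lay above the control mean. Beside Kmt2d, Dot1l was at -0.30 ± 0.09 and Kdm6b at -0.25 ± 0.10, which were -0.16 and -0.07 with the trend removed. The median of the list was -0.02, or 0.01 with the trend removed.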
